A study of Mus musculus with 74 samples.

Results

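This comparison sets mouse fibroblasts on day 4 of a three-factor conversion in N2B27 medium against the uninfected fibroblasts of the same series, 4 libraries of the 74 in the series. The N2B27 day 4 group (2 libraries) came from mouse embryonic fibroblasts (MEFs) with the alleles Nanog-CreER, Rosa26-tdTomato and Sox2-GFP. They had been infected with a lentivirus for M2rtTA, the Dox-dependent activator, and with Dox-inducible lentiviruses for Klf4, c-Myc and eSox17FNV, an engineered variant of the transcription factor Sox17. They were kept for 4 days in N2B27, a serum-free medium with N2 and B27 supplements, with Dox at 1 µg/mL. The MEF group (2 libraries) came from Sox2-GFP MEFs at passage 1 in MEF medium with serum, and the labels list no factors for them. The groups therefore differ in fibroblast line, infection, factors, Dox, medium and serum. The effects of these cannot be told apart, and no group here received the medium or the viruses without the factors. The members are the 20468 genes tested, of 20558 in the table.

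Fibroblasts that are pushed toward pluripotency usually lose features of mesenchyme, such as actin stress fibres and the transcription factors of the Snail, Twist and Zeb families, and gain epithelial junctions before the pluripotency network starts. Klf4 is also a factor of barrier epithelia, c-Myc drives growth and ribosome production, and Sox17 is a factor of endoderm and of blood vessels. In its natural form Sox17 does not replace Sox2 in reprogramming.

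The 4 libraries were normalized by the authors to the same distribution, so read depth is unknown and values are compared between libraries for 1 gene at a time, not between genes. Each column had a median of 195 and a highest value of 87546, which 10 genes shared in each library. Col1a1, Lox, Thbs1, Itgb1, Eef1a1 and mt-Co1 stood at that ceiling in all 4 libraries and could not show a rise. Correlations across genes on the log2 scale were 0.941 between the N2B27 day 4 libraries, 0.952 between the MEF libraries and 0.873 to 0.875 between groups. The labels do not say that replicates were separate cultures, so the p-values measure only the spread between libraries of a group. That spread was estimated over all 13 groups of the table, not from these 4 libraries alone.

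In all, 3769 of 20468 genes (18.4%) passed the test, meaning an adjusted p below 0.05 and at least a 2-fold change on the log2(value + 2) scale. Of these 2022 (9.88% of genes tested) were higher at N2B27 day 4 and 1747 (8.54%) were lower. The median log2 fold change over all genes was -0.05. Libraries of the 2 groups did not overlap for 72.5% of genes tested, with 31.5% higher and 41% lower at N2B27 day 4. "Rose" and "fell" below refer to genes that passed. The shares of 9.88% higher and 8.54% lower are the background for each count of list members that rose or fell.

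The MEF label was first set against fibroblast markers. In both MEF libraries Col1a1 stood at the ceiling of 87546, and Vim, Pdgfra and Thy1 were detected. Dcn, another fibroblast marker, had 1333 and 1182 in MEF, against 28991 in both N2B27 day 4 libraries. The MEF libraries also held macrophage transcripts. C1qa, C1qb and C1qc, the chains of the complement protein C1q that tissue macrophages make, had values from 129 to 172 in the MEF libraries and were listed at 0 in both N2B27 day 4 libraries. Fewer cells of a type and less RNA per cell cannot be told apart in bulk RNA.

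Windows of 300 bases around the annotated start (250 before and 50 after, RefSeq, GRCm38.p6) are shown for 6 genes of the groups that moved. Pou5f1 is a pluripotency gene that rose, and capitals mark CACCC, the core letters bound by Klf family factors. Epcam, Crb3 and Cldn4 are epithelial genes that rose, and capitals mark CACCTG, the E-box bound by Snail and Zeb repressors. Srf and Vcl are genes of the serum response and contractile groups that fell, and capitals mark the CArG box, which is bound by SRF. Both strands were searched and no motif contains another. The genes and motifs were chosen after the values and windows had been seen.
Pou5f1, chr17:35505782-35506081, plus strand: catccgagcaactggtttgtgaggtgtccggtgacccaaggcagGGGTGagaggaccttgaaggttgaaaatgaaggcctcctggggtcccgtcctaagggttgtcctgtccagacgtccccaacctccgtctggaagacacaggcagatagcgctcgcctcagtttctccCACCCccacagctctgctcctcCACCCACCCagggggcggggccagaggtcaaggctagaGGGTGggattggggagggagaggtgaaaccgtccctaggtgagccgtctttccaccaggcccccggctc
Epcam, chr17:87635729-87636028, plus strand: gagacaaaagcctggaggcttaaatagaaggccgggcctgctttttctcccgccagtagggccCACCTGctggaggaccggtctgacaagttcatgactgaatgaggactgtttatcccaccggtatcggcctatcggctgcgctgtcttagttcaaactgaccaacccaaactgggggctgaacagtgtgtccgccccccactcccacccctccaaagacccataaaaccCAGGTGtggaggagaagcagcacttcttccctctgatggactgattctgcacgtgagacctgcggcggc
Crb3, chr17:57061981-57062280, plus strand: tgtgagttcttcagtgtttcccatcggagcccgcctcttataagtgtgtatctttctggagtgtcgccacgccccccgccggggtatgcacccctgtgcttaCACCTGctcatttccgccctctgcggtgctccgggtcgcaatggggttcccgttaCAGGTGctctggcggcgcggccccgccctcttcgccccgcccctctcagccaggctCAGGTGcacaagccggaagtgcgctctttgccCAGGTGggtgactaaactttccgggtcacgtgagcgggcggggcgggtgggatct
Cldn4, chr5:134946885-134947184, minus strand: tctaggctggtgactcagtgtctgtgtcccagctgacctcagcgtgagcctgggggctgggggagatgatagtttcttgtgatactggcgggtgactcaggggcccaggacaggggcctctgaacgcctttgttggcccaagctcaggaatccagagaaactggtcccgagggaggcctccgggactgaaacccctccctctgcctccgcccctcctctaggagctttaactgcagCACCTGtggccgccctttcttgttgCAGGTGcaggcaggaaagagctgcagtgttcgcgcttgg
Srf, chr17:46556113-46556412, minus strand: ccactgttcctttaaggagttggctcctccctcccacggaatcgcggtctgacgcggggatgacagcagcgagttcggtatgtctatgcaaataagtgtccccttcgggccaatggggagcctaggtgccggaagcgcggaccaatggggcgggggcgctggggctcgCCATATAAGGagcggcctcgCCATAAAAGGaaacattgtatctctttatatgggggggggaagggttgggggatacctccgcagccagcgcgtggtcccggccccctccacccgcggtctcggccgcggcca
Vcl, chr14:20929148-20929447, plus strand: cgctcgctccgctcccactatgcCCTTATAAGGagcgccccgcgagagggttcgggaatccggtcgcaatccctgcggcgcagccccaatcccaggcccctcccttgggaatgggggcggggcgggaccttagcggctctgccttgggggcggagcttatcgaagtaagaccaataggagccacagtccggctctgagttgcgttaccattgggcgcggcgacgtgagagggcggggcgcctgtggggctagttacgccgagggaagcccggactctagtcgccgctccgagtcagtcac

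Pou5f1 and Crb3 have 2 windows each in the RefSeq table, and 1 of each is shown. The Pou5f1 window shown holds 5 matches to CACCC, but 57.5% of all 32851 windows hold at least 1. Among the lists searched, CACCC was present in 68.4% (p53 targets) to 86.7% (keratinocyte genes) of windows, with 22 of 26 (84.6%) for pluripotency. CACCTG was present in 16 of 20 windows (80.0%) that matched 15 of the 23 epithelial junction genes, and in 20.2% of all windows. It was present in 5 of 10 windows of the epithelial regulators and in 3 of 15 of the keratinocyte genes. The CArG box was present in 5 of 18 windows (27.8%) of the YAP, SRF and serum response genes and in 3 of 16 (18.8%) of the contractile genes, against 1.63% of all windows. Among 4 other motifs searched, CACGTG stood in 5 of 20 epithelial junction windows and 5 of 19 of p53 targets (7.15% of all windows). The p53 half-site stood in 6 of 19 windows of p53 targets (8.36% of all). The half-site also stood in 4 of 16 contractile windows. CATTGT stood in none of the epithelial junction windows (12.6% of all) and AACCNGTT in 1 of 20 (2.09%). A match describes letters in a window and does not show binding.

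**Figure D1:**
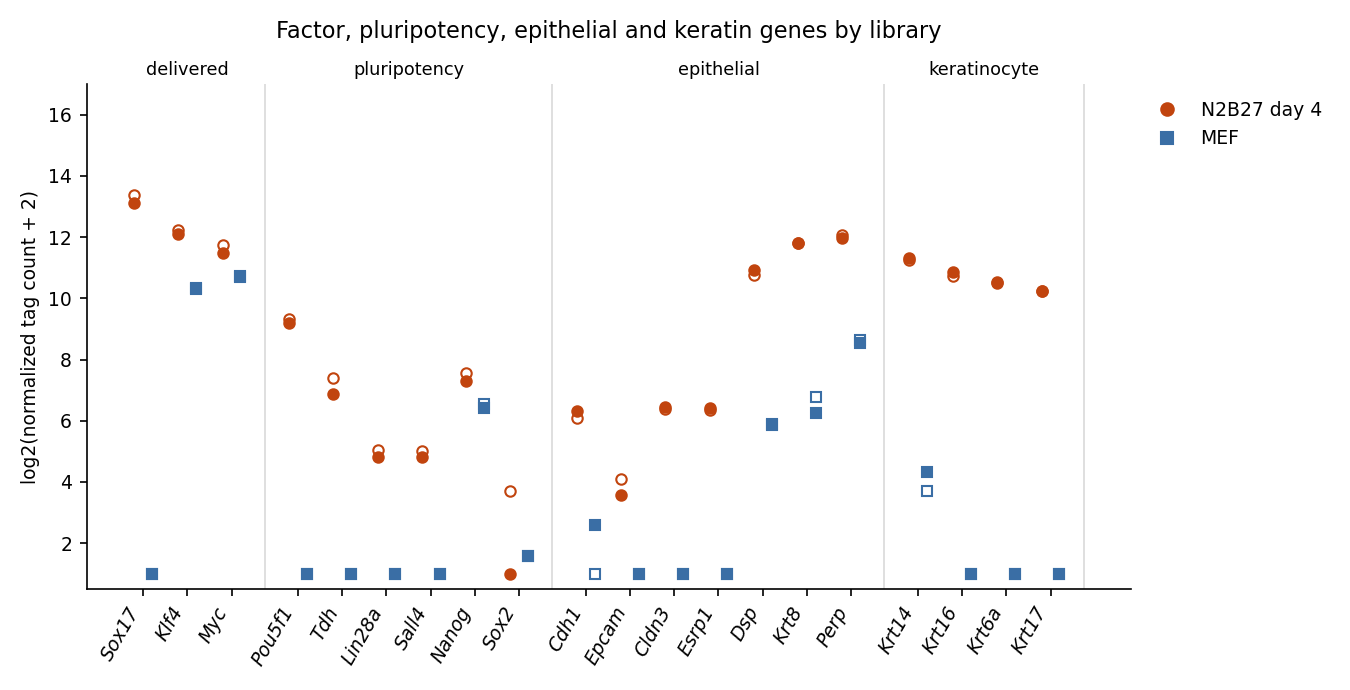
Values of factor, pluripotency, epithelial and keratinocyte genes as log2(normalized tag count + 2), with N2B27 day 4 libraries as orange circles left of MEF libraries as blue squares (filled, replicate 1; open, replicate 2). Pou5f1 stands at 582 and 633 at N2B27 day 4 and at 0 in both MEF libraries, while the Nanog values lie close together and Sox2 reaches 11 in 1 N2B27 day 4 library.

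The delivered genes were read first, because they check the labels. Sox17 (chr1:4490931-4497354, minus strand) had 8832 and 10627 in the N2B27 day 4 libraries and was listed at 0 in both MEF libraries. Klf4 (chr4:55527143-55532466, minus strand) had 4400 and 4861 at N2B27 day 4, against 1263 and 1301 in MEF, a log2 fold change of 1.85 ± 0.29 (SE; adjusted p = 0.00012). Myc had 2856 and 3440 at N2B27 day 4, against 1647 and 1690 in MEF.
The groups did not overlap for any of the 3 genes, which also held for 72.5% of all genes tested (31.5% higher at N2B27 day 4). Sox17 and Klf4 rose, and Myc did not pass the fold threshold (0.91 ± 0.29, adjusted p = 0.0216). The table has 1 row for each gene, so delivered and endogenous transcripts cannot be told apart. Of the factors of the study that these cells did not receive, Pou3f4 (the gene of Brn4) had 11 and 13 at N2B27 day 4, against 42 and 39 in MEF, and fell by 1.60 ± 0.58 on the log2 scale (adjusted p = 0.0422), a call that ended when any 1 of the 4 libraries was left out (adjusted p = 0.101 to 0.15). Sox2, the neural and pluripotency factor tagged by the reporter, had 0 and 11 at N2B27 day 4 and 1 in each MEF library, and did not pass (adjusted p = 0.307).

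Pou5f1 (chr17:35506018-35510772, plus strand), which encodes the pluripotency factor Oct4 and was not among the factors delivered, rose. It had 582 and 633 in the N2B27 day 4 libraries and was listed at 0 in both MEF libraries (adjusted p = 3.44e-09). Another 5 members of the pluripotency list rose. Tdh, a threonine dehydrogenase of mouse embryonic stem cells, had 115 and 168 at N2B27 day 4 and was listed at 0 in MEF. Lin28a, an RNA-binding repressor of let-7, had 26 and 31, and Sall4, a zinc finger partner of Oct4, had 26 and 30, with both listed at 0 in MEF. L1td1, an RNA-binding protein of pluripotent cells, had 125 and 168 at N2B27 day 4, against 34 and 1 in MEF (3.82 ± 0.78, adjusted p = 0.00122). Without the other groups of the table in the model the L1td1 adjusted p was 0.0937.

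Most of the pluripotency list did not pass. Of 30 genes tested 6 rose, 4 fell and 20 did not pass, with a median log2 fold change of 0.00 against -0.05 over all genes. Nanog had 155 and 188 at N2B27 day 4, against 84 and 91 in MEF, so the groups did not overlap, but the change of 0.95 ± 0.25 missed the fold threshold. Esrrb was at 1 in both N2B27 day 4 libraries, and Zfp42 and Dppa5a were listed at 0 in all 4 libraries. Klf2, a factor of naive pluripotency that fibroblasts also express, fell, with 58 and 55 at N2B27 day 4, against 719 and 759 in MEF (-3.66 ± 0.22). Klf5, Tbx3 and Trim71 were the other members that fell. Of the 13 formative and primed genes 0 rose and 1 fell, Zic2, which had 3 and 6 at N2B27 day 4, against 23 and 20 in MEF.

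The N2B27 day 8 libraries of the same cells give the later values, in a comparison that shares the N2B27 day 4 libraries. At day 8, 964 genes (4.71%) had passed against day 4, 614 of them higher (3.00%) and 350 lower (1.71%). The 964 calls were 342 with these 2 groups alone in the model and 628 without N2B27 day 4 replicate 1. Of the 30 pluripotency genes 21 were higher at day 8 than at day 4, with a median log2 fold change of 3.05. Pou5f1 had 3982 and 1341 at day 8 and Cdh1 1347 and 1942, all above their day 4 values. Sox2 reached 73 and 122 at day 8 and was called higher than at day 4. Nanog, at 268 and 195, was not.

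The epithelial junction genes moved in 1 main direction. Of 23 tested, 15 rose, 2 fell and 6 did not pass, with a median of 1.53. The median was 1.16 without the 7 members listed at 0 in a group, whose fitted values depend on the added constant. Cdh1 (chr8:106603351-106670246, plus strand), which encodes E-cadherin, had 77 and 66 at N2B27 day 4, against 4 and 0 in MEF (4.40 ± 0.94, adjusted p = 0.0017). Both N2B27 day 4 libraries stood above both MEF libraries.

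Desmosome genes were among those that rose. Dsp, the desmoplakin that ties keratin filaments to desmosomes, had 1929 and 1735 at N2B27 day 4, against 56 and 58 in MEF (4.96 ± 0.36). Perp, a desmosome membrane protein and p53 target, had 4024 and 4268 at N2B27 day 4, against 371 and 398 in MEF (3.42 ± 0.25). The groups were far apart for both genes.
Cldn3, a tight junction claudin, had 85 and 81 at N2B27 day 4, and Crb3, an apical polarity protein, had 43 and 44. Both were listed at 0 in MEF. Epcam, an epithelial adhesion molecule, had 10 and 15 at N2B27 day 4 and was listed at 0 in MEF, and Cldn4 had 8 in each N2B27 day 4 library, against 4 and 0 in MEF. Both rose, and both went on to higher values. At day 8 Epcam had 665 and 691 and Cldn4 519 and 890.

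Regulators and proteases of epithelia showed the same main direction, with 9 of 18 higher, 1 lower and a median of 1.74. The median was 0.86 without the 10 members listed at 0 in a group. Esrp1, the splicing factor of the epithelial program, had 83 and 80 at N2B27 day 4 and was listed at 0 in MEF. St14, the membrane protease matriptase, had 747 and 683 at N2B27 day 4, against 13 and 22 in MEF (5.24 ± 0.43, adjusted p = 2.46e-07). Ehf, an Ets factor of epithelia, had 39 and 59, and Ovol1, a repressor of mesenchymal genes, had 19 and 31. Both were listed at 0 in MEF. The member that fell was Spint1, an inhibitor of matriptase, with 1 in both N2B27 day 4 libraries, against 15 and 14 in MEF.

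The simple keratin pair did not move together. Krt8 (chr15:101996698-102004482, minus strand), a type II keratin of simple epithelia, had 3565 and 3594 at N2B27 day 4, against 75 and 107 in MEF (5.29 ± 0.24, adjusted p = 3.43e-10). Krt18, its usual type I partner, had 41 and 33 at N2B27 day 4, against 311 and 260 in MEF (-2.88 ± 0.49, adjusted p = 0.000287). Krt8 was higher and Krt18 lower in both N2B27 day 4 libraries than in either MEF library. At day 8 Krt18 had 590 and 2057. The other 4 simple keratins tested did not pass, among them Krt19 with 875 and 853 at N2B27 day 4, against 462 and 424 in MEF.

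Keratinocyte genes, those of stratified epithelium and its cornified envelope, held the highest share of increases among the lists described. Of 21 tested 17 rose, 0 fell and 4 did not pass, with a median of 3.86 (3.48 without the 6 members listed at 0 in a group). Krt16 (chr11:100246091-100248902, minus strand), a keratin of activated epidermis, had 1874 and 1700 at N2B27 day 4, its type II partner Krt6a 1477 and 1443, and Krt17 1202 and 1215. All 3 were listed at 0 in both MEF libraries. Krt14, the type I keratin of basal keratinocytes, had 2545 and 2439 at N2B27 day 4, against 18 and 11 in MEF (7.27 ± 0.37). Krt13, of internal stratified epithelia, had 901 and 841 at N2B27 day 4, against 4 and 0 in MEF (7.98 ± 0.45). Near-identical keratin genes can share reads, so the split between Krt6a, Krt16 and Krt17 and their relatives is uncertain.

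Several defining genes of keratinocytes did not pass. Trp63, the master factor of stratified epithelium, had 27 and 90 at N2B27 day 4, against 37 and 0 in MEF, so the groups overlapped. Ivl, the cornified envelope protein involucrin, had 47 and 37 at N2B27 day 4, against 23 and 27 in MEF, and Lor, or loricrin, had 19 and 13, against 23 and 20. Neither passed. By day 8 Krt16 (439 and 268) and Krt13 (152 and 153) were called lower than at day 4, and Krt5, the basal partner of Krt14, was called higher, with 827 and 800 at day 8 and 38 and 32 at day 4.

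Among the 15 largest increases of all genes, 13 were listed at 0 in both MEF libraries. Besides Sox17, Pou5f1 and the 3 keratins they included Krt90 (2367 and 2464 at N2B27 day 4, 0 in MEF) and Slurp1, a secreted protein of keratinocytes (4103 and 2942, 0 in MEF). Pi16, a peptidase inhibitor that marks a fibroblast population of connective tissue, had 10627 and 10028 at N2B27 day 4, against 5 and 1 in MEF (11.14 ± 0.49). Nccrp1, Ces1f, Slco1a4, Cyp4f39 and Slco4c1 had 655 to 1735 at N2B27 day 4 and were listed at 0 in MEF. Ifi202b, an interferon-inducible gene of the mouse Ifi200 cluster, had 1826 and 1548 at N2B27 day 4 and was listed at 0 in MEF. The remaining gene, Amy2a5, had 907 and 896 at N2B27 day 4 and 1 in each MEF library. At day 4 it had 1 and 821 in BKM_FNV and 1 and 531 in K_FNV, a step between replicates. Of these 15 genes 3 (Ifi202b, Slco4c1 and Amy2a5) lie in the lowest of 10 bands by GC content, where values stepped between 0 and 300 or more within replicate pairs. Nccrp1, Krt17 and Pou5f1 lie in the highest band, and Pi16, Slurp1, Krt90, Krt16 and Krt6a in the next. In the highest band 8.85% and 9.48% of genes were at 0 in the MEF libraries, against 4.13% and 3.65% at N2B27 day 4. The next band had 8.27% and 8.51% in MEF, against 4.33% and 4.09%. In bands 3 to 5 from the lowest, MEF had the lower shares at 0. The part of this in single values of 0 was not tested.

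**Figure D2:**
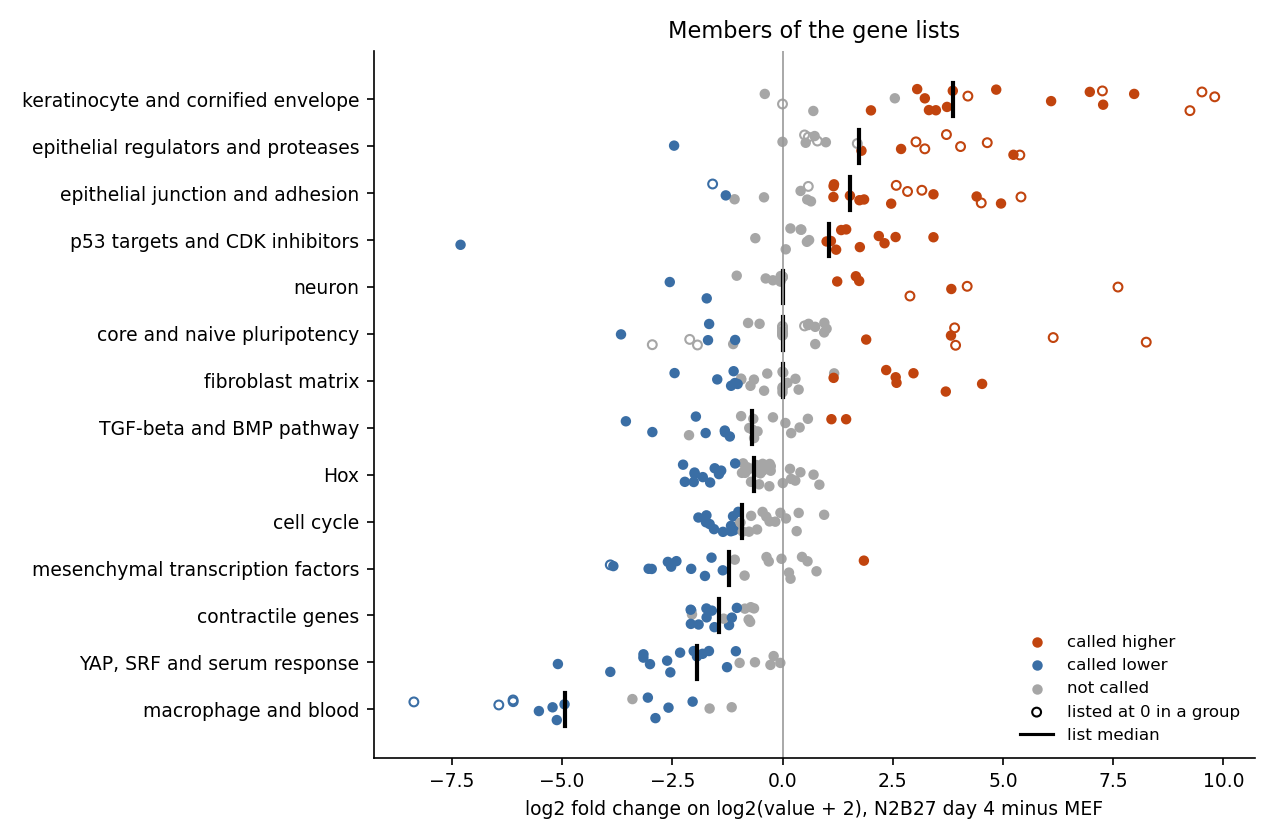
Log2 fold change (N2B27 day 4 minus MEF, on log2(value + 2)) of each tested member of 14 gene lists, 1 list to a row, with the list median as a black bar. Open symbols are genes listed at 0 in every library of a group, whose fitted value depends on the added constant. Called members of the keratinocyte list lie right of 0 and those of the contractile, serum response and macrophage lists lie left of it.

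Contractile genes fell. Of 18 tested 0 rose, 11 fell and 7 did not pass, with a median of -1.44, and all 18 had lower values in both N2B27 day 4 libraries than in either MEF library. Such non-overlap in this direction was seen for 41% of all genes tested. Tagln, the actin-binding protein transgelin, had 7354 in both N2B27 day 4 libraries, against 30890 in both MEF libraries (-2.07 ± 0.58). Actn1, or alpha-actinin, had 4073 and 4313 at N2B27 day 4, against 17710 in both MEF libraries (-2.08 ± 0.18). Lmod1, an actin nucleator of smooth muscle, had 391 and 330 at N2B27 day 4, against 1301 and 1398 in MEF (-1.90 ± 0.24). The groups were apart for each, and Tpm1 and Des fell too, Des not without N2B27 day 4 replicate 2 (adjusted p = 0.0647).

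The YAP, SRF and serum response genes, which respond to tension, actin polymerization and serum, also fell. Of 19 tested 0 rose and 14 fell, with a median of -1.94. Ctgf, a YAP target, had 2302 and 2642 at N2B27 day 4, against 21964 in both MEF libraries (-3.15 ± 0.33). Ankrd1, another YAP target, had 281 and 214 at N2B27 day 4, against 1997 and 1970 in MEF (-3.01 ± 0.19).
Ctgf and Ankrd1 did not overlap between groups. In the list 17 of 19 genes lay lower at N2B27 day 4 without overlap, against 41% of all genes tested. Srf itself, the factor of the CArG box, had 449 and 462 at N2B27 day 4, against 2270 and 2303 in MEF (-2.32 ± 0.19), and Vcl, the focal adhesion protein vinculin, had 5248 and 4921, against 15437 in both MEF libraries (-1.60 ± 0.47). Egr2 and Fosl1, transcription factors of the immediate and delayed early response, also fell. Junb and Ier2 did not pass. Serum differs between the groups by medium, and its part was not tested.

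Mesenchymal transcription factors divided. Of 22 tested 11 fell, 1 rose (Meox1) and 10 did not pass, with a median of -1.22. Snai1 (chr2:167538195-167542814, plus strand), the repressor of E-cadherin, had 287 and 292 at N2B27 day 4, against 1783 and 1575 in MEF (-2.53 ± 0.57). Twist2 had 274 and 303 at N2B27 day 4, against 2379 in both MEF libraries (-3.04 ± 0.36), and Zeb2 had 493 and 564, against 1735 and 1845 (-1.76 ± 0.26). Their relatives did not pass. Twist1 had 1234 and 1543 at N2B27 day 4, against 946 and 915 in MEF, and Zeb1 had 1232 and 1072, against 1497 and 1461. Tcf21, Foxf2, Foxc2 and Runx1, factors of fibroblast and skeletal precursors, fell, with Tcf21 listed at 0 in both N2B27 day 4 libraries.

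**Figure D3:**
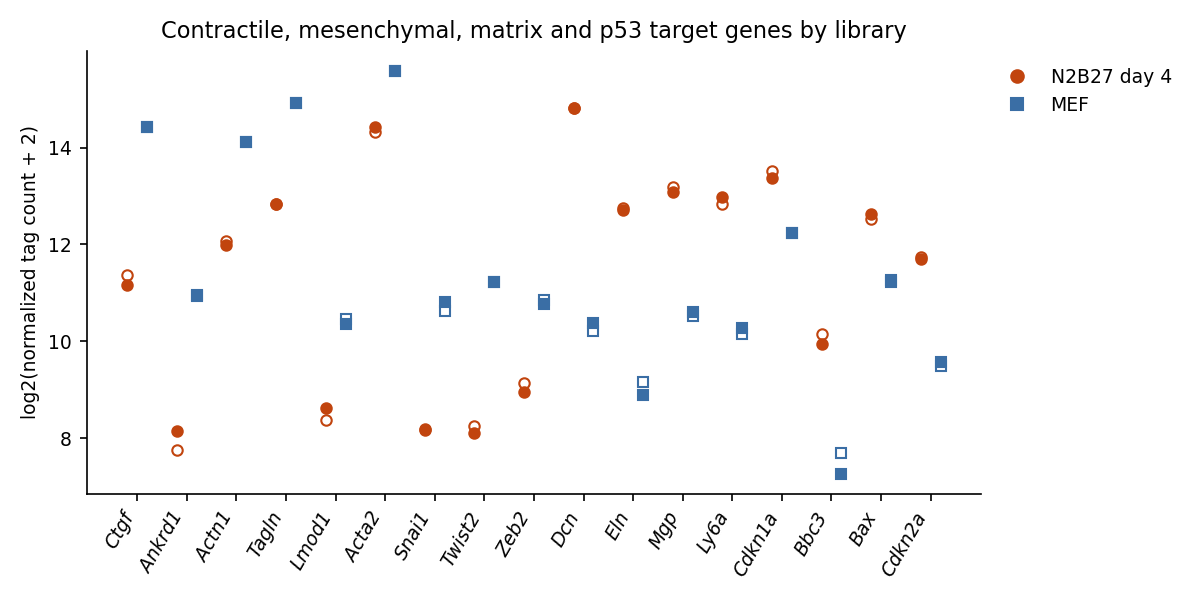
Values of contractile, serum response, mesenchymal, matrix and p53 target genes as log2(normalized tag count + 2), N2B27 day 4 libraries (orange circles) left of MEF libraries (blue squares), filled for replicate 1 and open for replicate 2. Ctgf lies at 2302 and 2642 at N2B27 day 4, against 21964 in both MEF libraries, while Dcn and Eln lie higher at N2B27 day 4.

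Fibroblast genes went in both directions. Of 28 matrix genes tested 7 rose, 6 fell and 15 did not pass, with a median of 0.00. Dcn (chr10:97479609-97518143, plus strand), the proteoglycan decorin, had 28991 in both N2B27 day 4 libraries, against 1333 and 1182 in MEF (4.53 ± 1.14). Eln, or elastin, had 6727 and 6860 at N2B27 day 4, against 471 and 573 in MEF (3.70 ± 0.29). Mgp, an inhibitor of matrix mineralization, had 8617 and 9340, against 1565 and 1460 in MEF (2.57 ± 0.32).
These genes were higher in both N2B27 day 4 libraries, and the microfibril genes Mfap4 and Mfap5 rose with them. Tnc, the matrix protein tenascin C, fell, with 5430 and 5898 at N2B27 day 4, against 30887 in both MEF libraries (-2.45 ± 0.30). Among 16 surface and other markers 4 rose and 2 fell. Cd34 had 2030 and 1837 at N2B27 day 4, against 268 and 260 in MEF (2.86 ± 0.23), and Ly6a, the surface antigen Sca-1, had 8087 and 7352, against 1239 and 1131 (2.70 ± 0.39). Pdgfra, the PDGF receptor of fibroblasts, fell, with 336 and 367 at N2B27 day 4, against 2487 and 2379 in MEF (-2.79 ± 0.24). Vim, the filament protein vimentin, had 34147 in both N2B27 day 4 libraries, against 39802 and 34147 in MEF, and did not pass.

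The TGF-beta and BMP pathway leaned lower, with 7 of 21 lower, 2 higher and a median of -0.69. Over all genes 8.54% were lower and 9.88% higher. Smad7, a feedback inhibitor, had 121 and 166 at N2B27 day 4, against 1602 and 1771 in MEF (-3.55 ± 0.37). Grem1, a secreted BMP antagonist, had 522 and 566 at N2B27 day 4, against 3914 and 4548 in MEF (-2.95 ± 0.18). Bmp4, a BMP ligand, rose, with 735 and 653 at N2B27 day 4, against 277 and 232 in MEF (1.44 ± 0.16). Of 12 canonical Wnt targets 2 rose (Notum and Nkd1, both feedback inhibitors) and 2 fell.

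Genes of p53 signalling and CDK inhibitors rose. Of 18 tested 10 rose, 1 fell and 7 did not pass, with a median of 1.05. Bbc3, the apoptosis gene Puma, had 983 and 1137 at N2B27 day 4, against 152 and 206 in MEF (2.57 ± 0.21). Trp53inp1, a p53-induced autophagy and cell death protein, had 11669 and 10289 at N2B27 day 4, against 2213 and 2190 in MEF (2.31 ± 0.23). Cdkn2a, which encodes p16 and p19Arf, had 3305 and 3412 at N2B27 day 4, against 756 and 719 in MEF (2.18 ± 0.20).
All 3 were higher in both N2B27 day 4 libraries. Cdkn1a, or p21, had 10625 and 11669, against 4791 in both MEF libraries (1.22 ± 0.15), and Bax, a pore-forming apoptosis protein, had 6323 and 5900, against 2379 and 2475 (1.33 ± 0.17). Mdm2, the ligase that degrades p53, did not pass, with 5742 and 6531 at N2B27 day 4, against 4603 and 4505 in MEF. Cdkn1c, an imprinted CDK inhibitor, went the other way, with 1 and 2 at N2B27 day 4, against 607 and 489 in MEF (-7.30 ± 0.45).

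Cell cycle genes leaned lower. Of 26 tested 0 rose and 11 fell, with a median of -0.93. E2f1, a factor of S phase entry, had 158 and 197 at N2B27 day 4, against 676 and 659 in MEF (-1.91 ± 0.16). Mcm2, a replicative helicase subunit, had 488 and 648 at N2B27 day 4, against 1909 and 1820 in MEF (-1.73 ± 0.25). Top2a, a topoisomerase of dividing cells, had 1908 and 2474, against 6056 and 6727 (-1.55 ± 0.20).
The groups were apart for all 3. Ccnd1, the D-type cyclin of G1, did not pass, with 9605 and 10024 at N2B27 day 4, against 5080 and 5116 in MEF. Of 26 Myc targets and ribosome biogenesis genes 1 rose (Hspe1), 2 fell and 23 did not pass, with a median of 0.28. Without N2B27 day 4 replicate 2 the calls in this list numbered 5. Ncl, or nucleolin, did not pass, with 30890 and 28994 at N2B27 day 4, against 14544 and 16249 in MEF. Uhrf1 and Dnmt1, which maintain DNA methylation at replication, fell among 8 genes of the DNA methylation list.

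Of 24 neural stem and progenitor genes 3 rose (Hes6, Sox21 and Rfx4) and 3 fell, near the shares over all genes (9.88% and 8.54%). The Sox21 and Rfx4 calls ended without MEF replicate 2 (adjusted p = 0.169 and 0.0967) and without N2B27 day 4 replicate 2 (0.159 and 0.058), and the Rfx4 call also without either of the other 2 libraries (0.0977 and 0.142). The call of Lhx2, which fell, ended without MEF replicate 2 (0.109) and without N2B27 day 4 replicate 1 (0.059). Hes6, a Hes family factor, had 597 and 536 at N2B27 day 4, against 84 and 98 in MEF (2.61 ± 0.20). Nes, the progenitor filament nestin, had 1411 and 1398 at N2B27 day 4, against 1333 and 1488 in MEF, and the groups overlapped.
Of 16 neuronal genes 7 rose and 2 fell, with a median of 0.00. Dcx, the microtubule protein of young neurons, had 463 and 326 at N2B27 day 4 and was listed at 0 in MEF. Stmn2, a tubulin-binding protein of growing axons, had 5117 and 5970 at N2B27 day 4, against 392 and 382 in MEF (3.83 ± 0.33). Syn1, of synaptic vesicles, fell, and Gap43 did not pass.

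Among the lineages in which Sox17 acts, 5 of 18 endothelial genes rose and 2 fell, against 9.88% and 8.54% of all genes. Tek, the angiopoietin receptor Tie2, had 1088 and 1093 at N2B27 day 4, against 98 and 70 in MEF (3.69 ± 0.20). Notch4, a vascular Notch receptor, had 152 and 144 at N2B27 day 4, against 8 and 7 in MEF (3.98 ± 0.44), and Cdh5, the vascular cadherin, had 57 and 90, against 8 and 0 (4.04 ± 0.60). Flt1 and Flt4, receptors for vascular growth factors, fell, and Kdr and Pecam1 did not pass.
Of 15 endoderm genes 2 rose and 5 fell. Lama1, a laminin chain of early basement membranes, had 1318 and 1321 at N2B27 day 4, against 53 and 44 in MEF (4.72 ± 0.39), while Gata4, Gata6 and Foxa1, factors of endoderm, fell. The Gata4 and Foxa1 calls ended without MEF replicate 2 (adjusted p = 0.0887 and 0.125) and without N2B27 day 4 replicate 2 (0.0534 and 0.061), and the Foxa1 call also without N2B27 day 4 replicate 1 (0.0621). Of 14 trophoblast genes 2 rose, Tfap2c and Hand1, and 4 fell. Prl2c2, a prolactin-family gene that fibroblasts also express on serum stimulation, had 6 and 5 at N2B27 day 4, against 847 and 809 in MEF (-6.79 ± 0.12).

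Macrophage genes fell. Of 15 macrophage and blood genes 0 rose, 12 fell and 3 did not pass, with a median of -4.94 (-3.05 without the 4 members listed at 0 at N2B27 day 4). Without MEF replicate 1 the median was -3.11 over the 11 members that then reached the minimum value in 2 libraries, and without MEF replicate 2 it was -3 over 11 members. Over all 15 members it was -3.57 without N2B27 day 4 replicate 1 and -4.91 without N2B27 day 4 replicate 2. The summed level of the list was 937 and 959 at N2B27 day 4, against 6414 and 5983 in MEF. Ctss, a lysosomal protease of macrophages, was listed at 0 in both N2B27 day 4 libraries and had 714 and 602 in MEF. Csf1r, the receptor for the macrophage growth factor, had 3 and 11 at N2B27 day 4, against 406 and 336 in MEF (-5.53 ± 0.42). Lyz2, or lysozyme, had 142 and 143 at N2B27 day 4, against 1603 and 1456 in MEF, and did not pass.
The part of these cells in other decreases was not tested. Inflammatory genes also leaned lower, with 7 of 19 lower and 0 higher, against 8.54% and 9.88% of all genes. Ptgs2, the prostaglandin enzyme Cox-2, had 924 and 911 at N2B27 day 4, against 14541 and 20420 in MEF (-4.23 ± 1.20), and Mmp10 and Cxcl2 were listed at 0 at N2B27 day 4 and had 91 to 168 in MEF. The Ptgs2 call ended without MEF replicate 2 (adjusted p = 0.065) and without either N2B27 day 4 library (0.0509 and 0.0508). Of 21 interferon response genes 0 rose and 2 fell, or 1 without MEF replicate 1.

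Among the 15 largest decreases 14 were listed at 0 in both N2B27 day 4 libraries. Ccr1, Msr1, C3ar1, Ccr3, Clec4d, P2ry12, Cd84, Tlr13, Rgs18 and Lilr4b, which are expressed in myeloid or other blood cells, had 488 to 1141 in MEF, and Lilr4b alone had 1 in each N2B27 day 4 library. Vmn1r51 and Vmn1r6, vomeronasal receptors, and Sycp3, a meiotic protein, had 445 to 632 in MEF and were listed at 0 at N2B27 day 4. Tmem71 had 537 and 499 in MEF, and Ctss, described above, was also among the 15. The C3ar1, Vmn1r51, Tmem71 and Sycp3 calls ended when any 1 of the 4 libraries was left out (adjusted p = 0.0526 to 0.0862). When all genes were divided into 10 bands by the GC content of their longest annotated transcript, 9 of these 15 genes fell in the lowest band. The lower quartile of values above 0 in that band was 91 to 108 in the 4 libraries, against 35 to 51 in the highest band. In the lowest band 55 genes were at 0 in 1 N2B27 day 4 library and at 300 or more in the other, as were 55 genes between the MEF libraries, out of 68 and 66 such genes over all bands. A step between 0 and 300 or more in this band therefore also occurred between replicates of a group.

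Few metabolic genes passed. Of 17 glycolysis genes 3 fell and 1 rose, against 8.54% and 9.88% of all genes tested. Without overlap 11 glycolysis genes lay lower at N2B27 day 4 and 4 higher, against 41% and 31.5% of all genes tested. The summed level of the list was 99805 and 101140 at N2B27 day 4, against 138300 and 139096 in MEF. Slc2a1, the glucose transporter Glut1, had 291 and 299 at N2B27 day 4, against 1812 and 1771 in MEF (-2.59 ± 0.36), and Slc16a3, a lactate exporter, had 85 and 77, against 850 and 875 (-3.38 ± 0.34). Of 19 cholesterol genes 1 rose and 2 fell. Of 34 Hox genes, which record body position, 0 rose and 11 fell, with a median of -0.65. Hoxb8 had 47 and 53 at N2B27 day 4, against 214 and 195 in MEF (-1.99 ± 0.42). Of 10 skeletal muscle genes 2 rose and 2 fell, with 1 or 2 calls when any 1 library was left out, and of 9 neural crest and Schwann genes 2 rose and 2 fell. The groups come from different fibroblast lines, and the part of line or dissection in the Hox values was not tested.

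**Figure D4:**
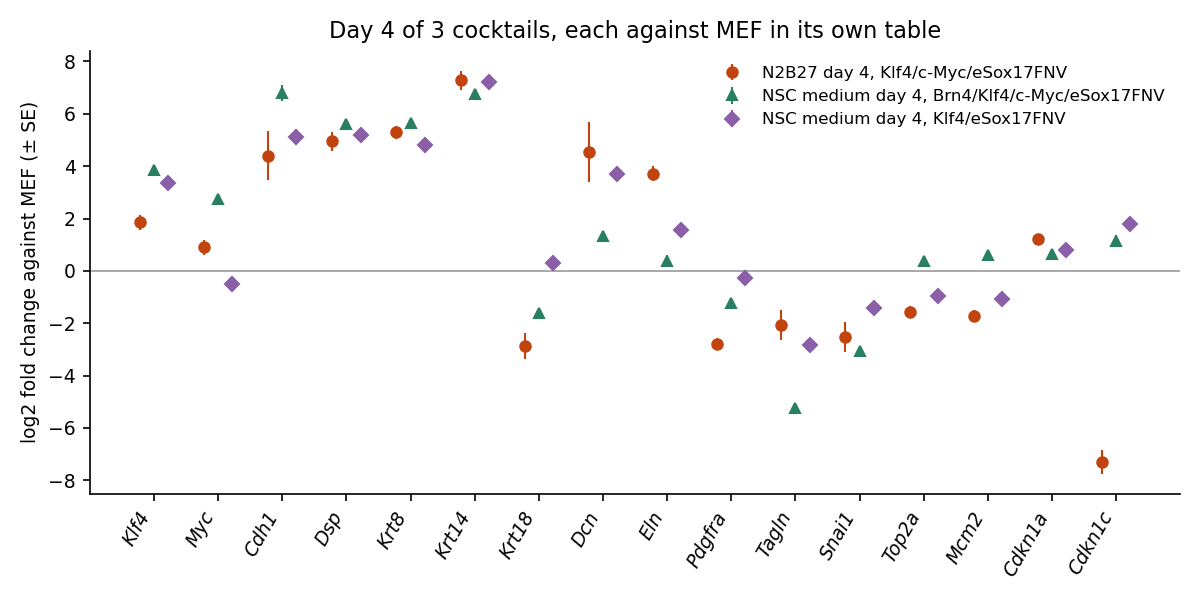
Log2 fold change ± SE against MEF for N2B27 day 4 (orange circles), 4 factors in NSC medium at day 4 (green triangles) and 2 factors in NSC medium at day 4 (purple diamonds), the last 2 from a table normalized separately. Cdh1, Krt8, Krt14 and Dsp lie above 0 for all 3, while Cdkn1c lies below 0 for N2B27 day 4 and above it for the other two.

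Day 4 of 2 cocktails in NSC medium, which contains bFGF and EGF, can be set beside these values. Both used Sox2-GFP MEFs, were normalized in another table and share the MEF samples with this comparison, so no test was made across them. BKM_FNV (Brn4, Klf4, c-Myc and eSox17FNV) at day 4 had 4040 of 18625 genes called against MEF (21.7%), with 11.2% higher and 10.5% lower. K_FNV (Klf4 and eSox17FNV) at day 4 had 3478 called (18.7%), with 10.4% higher and 8.23% lower. The log2 fold change of Cdh1 against MEF was 4.40 ± 0.94 at N2B27 day 4, 6.80 ± 0.31 in BKM_FNV and 5.10 ± 0.31 in K_FNV. That of Krt14 was 7.27 ± 0.37 at N2B27 day 4, 6.77 ± 0.19 in BKM_FNV and 7.22 ± 0.19 in K_FNV. Tagln was at -2.07 ± 0.58 at N2B27 day 4, -5.22 ± 0.13 in BKM_FNV and -2.84 ± 0.13 in K_FNV.

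For other genes the values lay apart between the cocktails, in tables normalized separately. Klf4 was at 1.85 ± 0.29 against MEF at N2B27 day 4, 3.85 ± 0.08 in BKM_FNV and 3.37 ± 0.08 in K_FNV. Myc was at 0.91 ± 0.29 at N2B27 day 4, 2.75 ± 0.12 in BKM_FNV and -0.48 ± 0.12 in K_FNV, which lacked c-Myc. Pou5f1, at 582 and 633 at N2B27 day 4, had 2 and 9 in BKM_FNV and 3 and 1 in K_FNV. Other pluripotency genes that rose here were also called higher in BKM_FNV, where Tdh had 128 and 127, Sall4 112 and 110, L1td1 216 and 218 and Lin28a 9 and 12. In K_FNV Sall4 (5 and 12) and Lin28a (27 and 28) were called higher, and Tdh (1 and 1) and L1td1 (19 and 51) were not. Ifi202b, at 1826 and 1548 at N2B27 day 4, was listed at 0 in BKM_FNV, K_FNV and MEF. In the other day 4 cocktails of the NSC-medium table it had 0 and 448 (BKM_Sox17) and 323 and 0 (BKM_Sox2), so it stepped between 0 and over 300 within replicate pairs. No such step was seen in the table of this comparison. There Ifi202b had 920 to 5432 in all groups given Klf4, c-Myc and eSox17FNV without Brn4. It was listed at 0 in both libraries of MEF, of primary neural stem cells and of the four-factor induced line. The source of these values was not tested. Cdkn1c, at 1 and 2 at N2B27 day 4, had 1087 and 1418 in BKM_FNV and 1983 and 1887 in K_FNV, against 623 and 495 in MEF in that table.
Top2a and Mcm2 fell at N2B27 day 4, while in BKM_FNV they were at 0.36 ± 0.16 and 0.59 ± 0.07 and did not pass. Lox, at the ceiling of the table in all 4 libraries here, had 2035 and 2240 in BKM_FNV and 7159 and 8744 in K_FNV, against 78139 in both MEF libraries of that table. Line, medium and cocktail differ at once in these contrasts and cannot be told apart.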

How the data were processed

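RNA was sequenced from mouse cells. Per the submitters' processing notes, Bowtie2 2.0, RSEM and mm10 were used. The authors deposited normalized tag counts, a unit treated here as a score, since they are neither raw counts nor per-million values. The 4 libraries compared have the same highest value and the same median, as full quantile normalization gives. Lower quartiles of the values differ between bands of genes by GC content, so a normalization within such bands is possible, but the method is not given in the sources used here. Depth is therefore unknown and no count model was used. Over both tables, 4 columns that matched no labelled sample were not used. Groups came from the labels.

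Values were compared as log2(value + 2) for genes at 10 or more in at least 2 libraries, with limma 3.58.1 in R 4.3.3 (variance trend, one mean for each of 13 groups of the parallel table), two-sided, with Benjamini-Hochberg adjustment over all genes tested. A gene was called at adjusted p below 0.05 and at least 2-fold. The method was tested on simulated data, with normal noise around the MEF means and 200 genes changed at N2B27 day 4. The changed genes all lay well above 0 in MEF, so the simulation does not cover genes listed at 0 there. With 2 against 2 libraries an exact permutation test cannot go below p = 0.333. No fold is given for genes listed at 0 in a group.

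Named were the factors and markers, the 15 largest increases and 15 largest decreases, and for each of 33 lists up to 5 called members with the largest change and up to 3 others with the highest mean. Further genes (such as Snai1, Zeb2, Twist1, Zeb1, Srf, Vcl, Epcam, Cldn4, Klf2, Klf5, Tbx3, Trim71, Esrrb, Zfp42, Dppa5a, Spint1, Krt5, Meox1, Tnc, Cdkn1a, Bax, Gata6 and Itgb1) were named after their values were seen. The members and lists were chosen with earlier results of these data known. Coordinates are from GENCODE M21 (mm10). Alternatives were pseudocounts of 1 and 10, other filters and scalings, thresholds, the compared groups alone, a replicate block and leaving out each library.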

Additional observations from a re-analysis of the deposited data

How the results depend on the processing

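The count of 3769 called genes at N2B27 day 4 against MEF lay between 3345 and 3779 under every alternative other than the thresholds. With a threshold of 1.5-fold it was 5856 (3045 higher, 2811 lower), and with no fold threshold 7687 (3916 higher, 3771 lower). Leaving out 1 library at a time gave 3345 to 3575, with 3016 to 3148 of the genes shared with the full fit. Leaving out the lowest of 10 bands of genes by GC content, chosen after seeing the data, gave 3687. The day 8 against day 4 count of 964 was 342 with the compared groups only, 1750 at 1.5-fold, 2463 with no fold threshold and 628 and 704 without N2B27 day 4 replicate 1 and 2. The differences between replicates 1 and 2 in N2B27 day 4 and in MEF were nearly uncorrelated across genes (-0.02). Replicate numbers thus showed no pairing between these 2 groups, and pairing of other groups was not checked. The replicate block gave 3779 calls.

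Among genes named by the rule, 82 of the gene and setting combinations lost the call, 59 gained a call and 3550 stayed the same. Genes outside the rule were not part of this check. The lost calls concern C3ar1, Vmn1r51, Sycp3, Tmem71, Pou3f4, Ptgs2, L1td1, Lef1, Des, Gata4, Foxa1 and other genes near the threshold. The median of the skeletal muscle list was -0.19 with a minimum of 50, and that of Sox2 and Pou3f4 ran from -1.15 to 0.31 when 1 library was left out (0.31 without N2B27 day 4 replicate 1). The values -0.19 and 0.31 are opposite in sign to the full fit (0.34 and -0.42), and -1.15 is not. The cause was not tested. Unknown depth limits what a value of 0 shows, and genes at the ceiling cannot show a rise.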
